A study of Mus musculus with 10 samples.

Results

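The VEGF and angiopoietin genes described here are 5 secreted ligands, Vegfa, Vegfb, Vegfc, Angpt1 and Angpt2, and 5 receptor tyrosine kinases, Kdr, Flt1, Flt4, Tek and Tie1. These 10 genes, of 19938 measured, were taken by symbol from array probe sets annotated with a single gene symbol. Where a gene had several, the brightest on average was to be selected on its mean over all 10 arrays, but each gene had 1 such probe set, so no level entered the choice. The genes were listed with earlier results of these data known.

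RNA of male C57BL/6 mice aged 3 months was hybridised to Affymetrix expression arrays in 4 groups. Ventricular cardiomyocytes, the isolated muscle cells of the ventricle, gave 3 arrays from wild-type (WT) mice and 3 from VAChT KD mice. Whole hearts gave 2 arrays of each genotype. VAChT is the transporter that loads acetylcholine into synaptic vesicles, and KD, in the labels' term, is read here as knockdown of it. The labels name no promoter, Cre or targeted cell type, and the series title writes the genotype as KDHOM. No animal was treated, and RNA from 2 samples was pooled for each array. The labels name no shared animals, so p-values measure the spread between these pools, part of which may be technical.

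Values are log2 signals, so that a difference of 1 is a doubling. Array medians over all genes were 6.19 to 6.27 in cardiomyocytes and 7.54 to 7.59 in hearts. Cardiomyocyte and heart RNA were labelled by different manuals, so tissue and labelling cannot be told apart. Over all genes, replicate cardiomyocyte arrays correlated at 0.992 to 0.995. The pair of WT hearts correlated at 0.993, and the pair of KD hearts at 0.980. Slc18a3, the gene of VAChT, measured 6.04 to 6.37 in WT and 6.21 to 6.52 in KD cardiomyocytes, and 7.34 and 7.72 in WT and 7.31 and 7.84 in KD hearts. Its values overlapped between the genotypes in both tissues and did not check the labels, which therefore define WT and KD throughout. One KD heart array, replicate 1, stood apart in thymocyte and T cell genes, whose mean lay 2.76 log2 units above the WT hearts, against 0.04 for KD heart replicate 2.

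VEGF ligands act mainly on endothelial cells, the lining of vessels. Vegfa drives vessel growth and permeability through Kdr, while Flt1 binds Vegfa and Vegfb and limits the free ligand. Vegfc acts through Flt4, the receptor best known from lymphatic vessels. Angpt1, made by perivascular and muscle cells, activates Tek and stabilises vessels, Angpt2 can oppose it, and Tie1 is a partner of Tek. In the heart the muscle cell is a known source of Vegfa and Vegfb, and the receptors belong chiefly to the endothelium between the muscle fibres.

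Receptors and ligands therefore usually lie in different cells, and the sequences just upstream of 4 receptor genes and of Vegfa are shown because those genes divide the tissues below. Each is the 250 bases before the annotated start, from RefSeq on GRCm38.p6, 5′ to 3′ on the gene's strand. Capitals mark GGAA or its complement TTCC, the core bound by ETS factors, a family that includes endothelial regulators such as Erg and Fli1. The Vegfa entry is the most upstream of 2 listed starts.
Kdr (chr5:75978456-75978705, minus strand): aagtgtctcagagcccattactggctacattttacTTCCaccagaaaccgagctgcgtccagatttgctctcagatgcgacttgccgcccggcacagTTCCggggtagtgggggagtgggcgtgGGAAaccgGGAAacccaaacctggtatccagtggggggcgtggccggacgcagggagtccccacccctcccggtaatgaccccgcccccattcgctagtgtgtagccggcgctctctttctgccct
Flt1 (chr5:147726012-147726261, minus strand): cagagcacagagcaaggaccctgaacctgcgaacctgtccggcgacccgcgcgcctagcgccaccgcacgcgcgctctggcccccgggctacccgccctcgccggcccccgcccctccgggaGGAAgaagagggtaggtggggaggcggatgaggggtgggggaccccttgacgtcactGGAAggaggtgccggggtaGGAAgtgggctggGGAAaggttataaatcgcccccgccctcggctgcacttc
Tek (chr4:94739039-94739288, plus strand): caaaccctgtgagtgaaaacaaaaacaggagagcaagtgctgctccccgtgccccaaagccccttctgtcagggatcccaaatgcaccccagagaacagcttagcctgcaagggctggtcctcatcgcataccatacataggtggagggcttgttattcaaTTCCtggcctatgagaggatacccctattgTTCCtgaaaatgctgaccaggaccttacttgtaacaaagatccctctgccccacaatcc
Tie1 (chr4:118489850-118490099, minus strand): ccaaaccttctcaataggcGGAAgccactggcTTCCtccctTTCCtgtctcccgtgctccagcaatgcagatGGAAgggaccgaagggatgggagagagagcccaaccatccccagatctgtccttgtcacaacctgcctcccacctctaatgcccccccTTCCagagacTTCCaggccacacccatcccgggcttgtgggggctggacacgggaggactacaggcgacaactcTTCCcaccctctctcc
Vegfa (chr17:46032378-46032627, minus strand): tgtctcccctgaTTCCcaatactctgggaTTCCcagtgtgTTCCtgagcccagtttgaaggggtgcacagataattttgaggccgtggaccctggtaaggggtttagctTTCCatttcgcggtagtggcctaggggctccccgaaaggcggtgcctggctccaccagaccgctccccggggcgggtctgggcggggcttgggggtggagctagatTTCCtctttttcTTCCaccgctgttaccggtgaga

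Promoters of 8 of the 10 genes matched; Angpt1 and Angpt2 had no entry. The core occurred 7 times before Tie1, 6 times before Vegfa, 4 times before Kdr and Flt1, and 2 times before Tek and Flt4. Vegfb and Vegfc held 1 each. Of all 32851 promoter windows of this length, 93.4% held at least 1 core on either strand, with a mean of 2.91, so its presence sets none of these genes apart. ACGTG, the core of hypoxia response elements, was searched on both strands and occurred in 0 of the 8, against 16.6% of all windows. GATAA, searched likewise, occurred in Vegfa only, against 22.6%. Flt1 alone held TATAAA, found in 12.4% of windows, and TGACGTCA, the cyclic AMP response element, found in 1.55%. A match is a run of letters, not a shown binding site.

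The first comparison sets cardiomyocytes against whole hearts, after quantile normalization of all arrays because the deposited medians differ. In WT samples Vegfa and Vegfb were 1.88-fold and 1.75-fold higher in cardiomyocytes, and all 5 receptors were lower, by 0.53 (Flt1) to 1.42 (Tek) on the log2 scale, though Flt1 turned positive when arrays were centred on their medians. Vegfc was lower with the receptors, and Angpt1 did not pass the test. In the limma fit 9 of the 10 genes passed an adjusted p of 0.05, where 59% of all genes did. The 3 called higher compare with 29.8% of all genes, and the 6 called lower with 29.2%. In KD samples the same 9 genes passed in the same directions, against 60% of all genes, 31% higher and 29.1% lower. Values of the 2 tissues did not overlap for 10 of 10 genes in WT (74.8% of all genes) and 9 of 10 in KD (72.5%), Angpt1 being the exception in KD. In bulk samples fewer cells of a type and less RNA per cell cannot be told apart.

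Vegfa (probe set 10451198, chromosome 17) measured 11.17, 11.08 and 11.13 in WT cardiomyocytes and 10.31 and 10.12 in WT hearts, as quantile-normalized log2 values. In KD samples it measured 11.05, 11.26 and 11.01 in cardiomyocytes and 9.80 and 9.50 in hearts. All 6 cardiomyocyte arrays lay above all 4 heart arrays, and the WT hearts above the KD hearts. The difference between tissues was 0.91 (SE 0.12, adjusted p = 7.3e-05) in WT and 1.46 (SE 0.12, adjusted p = 2.0e-06) in KD, a 2.75-fold ratio in KD. Vegfb (probe set 10465559, chromosome 19), whose product binds Flt1, measured 11.16, 11.31 and 11.16 in WT cardiomyocytes and 10.41 in each WT heart. Its difference was 0.80 (SE 0.11, adjusted p = 8.5e-05) in WT and 0.86 in KD. Vegfa and then Vegfb held the 2 highest differences of the 10 genes in both genotypes under each of the 3 scalings tried.

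Vegfc (probe set 10571788, chromosome 8) ran the other way, at 6.24, 6.10 and 6.16 in WT cardiomyocytes and 7.17 and 6.77 in WT hearts. Its difference was −0.81 (SE 0.13, adjusted p = 0.00031). Its deposited values lay below the array's gene median on all 6 cardiomyocyte arrays. Angpt2 (probe set 10577315), the Tek ligand known from sprouting vessels, lay below the gene median on all 10 arrays. It measured 6.36, 6.40 and 6.43 in WT cardiomyocytes and 5.95 and 5.67 in WT hearts, a difference of 0.59 (SE 0.13, adjusted p = 0.002) that turned to −0.87 on the deposited values. Angpt1 (probe set 10428376) measured 8.69, 8.83 and 8.88 in WT cardiomyocytes and 9.24 and 9.02 in WT hearts, a difference of −0.33 (SE 0.17, adjusted p = 0.108), and 0.36 in KD (adjusted p = 0.083). Neither Angpt1 difference passed the test, and neither Angpt gene kept a sign under every scaling.

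Tek (probe set 10505954, chromosome 4), the angiopoietin receptor, showed the largest receptor difference. It measured 8.74, 8.47 and 8.81 in WT cardiomyocytes and 10.24 and 9.96 in WT hearts, a difference of −1.42 (SE 0.14, adjusted p = 8.6e-06). Tek was thus 2.68-fold higher in the hearts, with no overlap. Tie1 (probe set 10515771, chromosome 4) measured 8.89, 8.72 and 8.50 against 9.72 and 9.59, a difference of −0.95 (SE 0.13, adjusted p = 6.9e-05). Kdr (probe set 10530692, chromosome 5), the main signalling receptor for Vegfa, measured 9.11, 9.11 and 9.28 against 10.21 and 9.81, a difference of −0.84 (SE 0.14). Kdr also passed the test, though its WT hearts lay further apart than those of the other receptors. Flt4 (probe set 10375578, chromosome 11) differed by −0.74 (SE 0.13), from 6.98, 6.73 and 6.81 to 7.59 and 7.56. Flt1 (probe set 10535807, chromosome 5) had the smallest receptor difference, −0.53 (SE 0.17, adjusted p = 0.017), from 9.29, 9.06 and 9.09 to 9.58 and 9.77. Flt1 lost the call without WT cardiomyocyte replicate 2 (adjusted p = 0.051) or WT heart replicate 2 (0.121), with −0.49 and −0.43. In KD it lost the call in 3 of 5 such fits, without cardiomyocyte replicate 1 (−0.41, adjusted p = 0.094), cardiomyocyte replicate 3 (−0.46, 0.069) or heart replicate 2 (−0.13, 0.458).

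**Figure D1:**
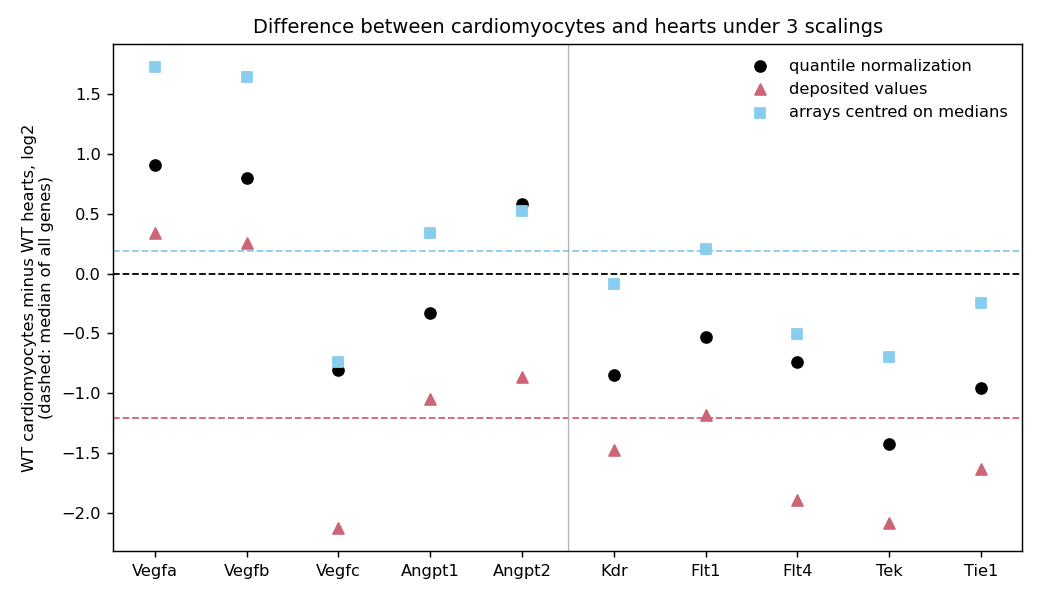
Difference between WT cardiomyocytes and WT hearts (log2) for the 5 ligands on the left and the 5 receptors on the right, under quantile normalization (circles), deposited values (triangles) and centring on array medians (squares); dashed lines give the median of all genes under each scaling. Vegfa and Vegfb are positive and Vegfc, Flt4, Tek and Tie1 negative under all 3, while Angpt1, Angpt2 and Flt1 cross 0.

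Scaling sets the zero of this comparison. The median difference of all genes in WT was −1.20 on the deposited values and 0.19 after centring each array on its median, and the share of called genes that were higher in cardiomyocytes was 50.5% with quantile normalization, 4.25% as deposited and 65% after centring. Vegfa stood at 0.34 as deposited and 1.73 centred, and Vegfb at 0.26 and 1.64. Vegfc, Flt4, Tek and Tie1 were negative under all 3 scalings in both genotypes. On the deposited values 10 of 10 genes passed in both genotypes, Vegfa and Vegfb higher and the other 8 lower. Of all 19938 genes 18175 passed in WT (772 higher, 17403 lower) and 18119 in KD (919 and 17200). Centred, 6 passed in WT, 3 higher and 3 lower, and 7 in KD, 4 higher and 3 lower. Of all genes 12950 passed in WT (8421 higher, 4529 lower) and 13330 in KD (8774 and 4556). Counts of the lists below stand beside these. Of the 5 receptors, 2 were called in WT when centred, Tek at −0.69 and Flt4 at −0.50. Tie1, at −0.25 centred, lost its call. Kdr was −1.48 as deposited and −0.09 centred, and Flt1 −1.18 and 0.20, both without a call when centred. Angpt1 was called lower as deposited (−1.05, adjusted p = 5.9e-05 in WT; −0.43, 0.030 in KD) and higher when centred in KD (0.99, 0.00056).

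Differences within an array do not depend on where an array is centred. The mean of the 5 receptors minus the mean of the 5 ligands was −0.12, −0.33 and −0.25 in WT cardiomyocytes and 0.85 and 0.94 in WT hearts, on quantile-normalized values. In KD samples it was −0.27, −0.12 and −0.24 in cardiomyocytes and 0.96 and 1.28 in hearts. Hearts lay above cardiomyocytes on every array, by 1.13 in WT and 1.33 in KD. Because probe sets differ in brightness, only the change of this difference between samples can be read, not its sign.

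**Figure D2:**
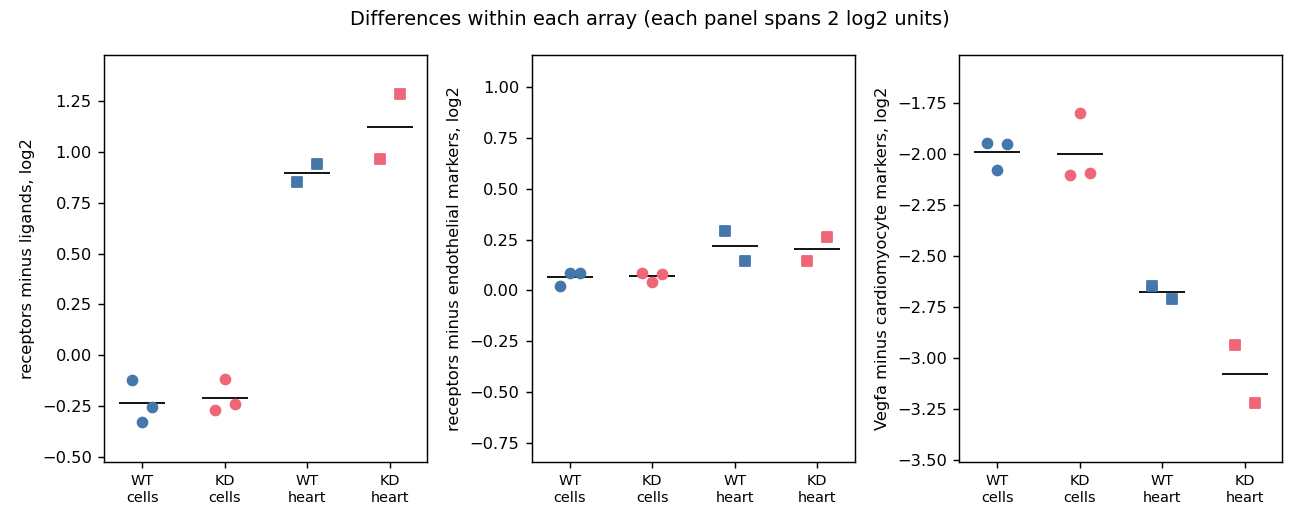
Within-array differences of mean quantile-normalized log2 values for each array (points; black line, group mean): receptors minus ligands, receptors minus 24 endothelial markers, and Vegfa minus 14 cardiomyocyte markers, with each panel spanning 2 log2 units. Receptors minus ligands is higher in hearts, from 0.85 to 1.28, than in cardiomyocytes, from −0.33 to −0.12, and Vegfa minus cardiomyocyte markers is lowest in the KD hearts.

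The labelled cell types were checked against marker genes. Pecam1, an endothelial adhesion protein, measured 8.40 to 8.83 in cardiomyocytes and 10.41 to 10.73 in hearts as deposited. Cdh5, the endothelial cadherin, measured 9.91 to 10.38 and 10.68 to 10.79, likewise as deposited. After quantile normalization Pecam1 stayed lower in WT cardiomyocytes, at 9.06, 8.79 and 8.91 against 10.40 and 10.23 in WT hearts. Cdh5 did not, at 10.55, 10.39 and 10.6 against 10.46 and 10.45, with overlap. As deposited, Pecam1 and Cdh5 lay above the gene median of every cardiomyocyte array, so endothelial markers were not absent from the isolated cells. Of the 24 endothelial markers 14 were called lower in WT cardiomyocytes and 0 higher, with a median of −0.52 (Vwf −2.17, SE 0.13; Mmrn2 −1.76, SE 0.12); the median was −1.46 as deposited and −0.08 centred, where 7 were called higher. The 5 receptors minus these markers changed by −0.15 in WT and −0.13 in KD between tissues, and by −0.08 and −0.05 with overlap on the deposited values.

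Other cell types moved too, and their part in the ligand differences was not tested. All 11 fibroblast markers were called lower in WT cardiomyocytes under all 3 scalings (Col1a1 −2.22, SE 0.12). Macrophage markers were called lower for 10 of 11, 11 of 11 as deposited and 9 of 11 centred (C1qc −3.39, SE 0.18). Mural markers, for smooth muscle and pericytes, were called lower for 8 of 12 (Rgs5 −1.21, SE 0.13) and higher for 3, with 10 and 0 as deposited and 5 and 3 centred. Lymphatic markers were called lower for 5 of 6 under all 3 scalings (Lyve1 −3.26, SE 0.22), beside Vegfc and Flt4. The remaining lymphatic marker, Prox1, was called higher with quantile normalization and centred. It measured 9.17, 9.49 and 9.57 in WT cardiomyocytes and 7.96 and 8.33 in WT hearts, quantile-normalized. Of 14 cardiomyocyte markers 6 were called higher and 3 lower, with a median of 0.14 (Tnni3 1.63, SE 0.08); as deposited 3 were higher and 9 lower, and centred 12 and 1. Vegfa minus these markers was higher in cardiomyocytes by 0.69 in WT and 1.08 in KD, without overlap. The 14 markers include Nppa, also an atrial gene, whose lower cardiomyocyte values add to that difference. Quantile-normalized, Nppa measured 11.07, 11.31 and 10.32 in WT cardiomyocytes and 12.90 and 12.69 in WT hearts.

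**Figure D3:**
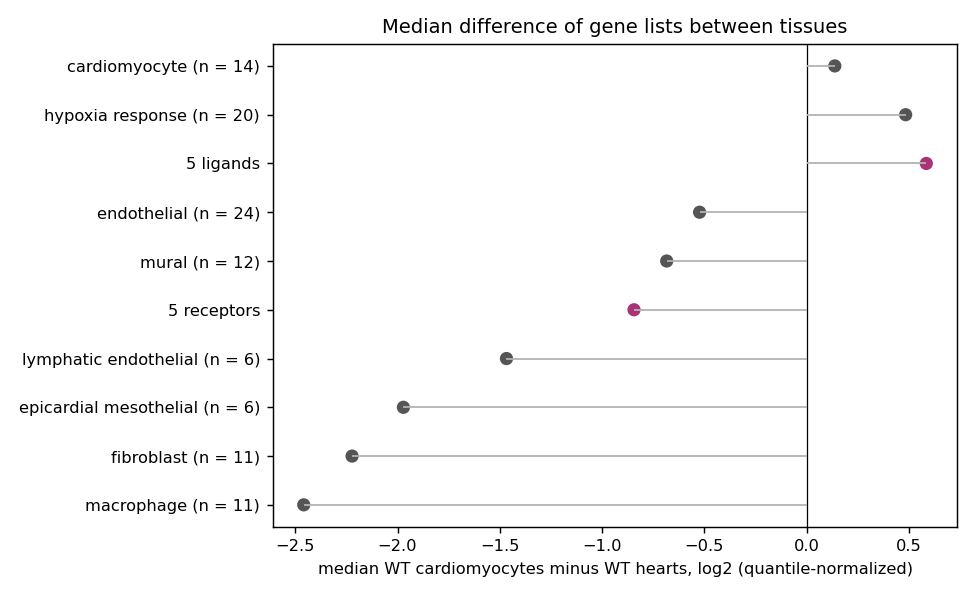
Median difference between WT cardiomyocytes and WT hearts (quantile-normalized log2) for the 5 ligands, the 5 receptors and 8 lists of marker or hypoxia genes. Macrophage (−2.46) and fibroblast (−2.22) markers are the lowest and the receptors (−0.84) lie with the endothelial and mural markers (−0.52 and −0.68).

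The rest of the pathway held genes higher and genes lower in cardiomyocytes under quantile normalization, and the balance depended on the scaling. Of 12 other ligands and coreceptors 3 were called higher in WT cardiomyocytes and 5 lower, with a median of −0.02. The lower ones included Pgf, a ligand of Flt1 (−1.57, SE 0.22), Vegfd, a ligand of Flt4 (−1.33, SE 0.20), and Itgb3, an integrin subunit (−1.18, SE 0.11). Of 9 genes for ligand processing 2 were higher and 2 lower, among them Svep1, a matrix protein of lymphatic development (−1.34, SE 0.11). Of 21 measured genes of VEGF receptor signalling 9 were higher and 6 lower, such as the kinase Prkca (1.37, SE 0.11) and the adaptor Shc1 (−0.97, SE 0.12). Of 6 TIE signalling genes 3 were higher and 2 lower, with the phosphatase Ptpn11 at 0.97 (SE 0.10) and the adaptor Dok2 at −1.04 (SE 0.13). Of 20 hypoxia response genes, the best known inducers and companions of Vegfa, 11 were higher and 6 lower, with a median of 0.48. Egln3, an oxygen-sensing hydroxylase, stood at 1.08 (SE 0.13), and Pfkfb3, a glycolytic regulator, at −1.77 (SE 0.13). The hypoxia median was −0.28 as deposited and 1.11 centred, above the median of all genes under each scaling. On the deposited values the counts higher and lower were 0 and 9 for the other ligands and coreceptors, 0 and 8 for ligand processing, 2 and 14 for VEGF receptor signalling, 1 and 4 for TIE signalling and 3 and 9 for hypoxia response. Centred, they were 6 and 4, 4 and 1, 14 and 3, 3 and 1, and 14 and 4, in the same order. Over all genes the counts were 772 and 17403 as deposited and 8421 and 4529 centred.

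The second comparison asks whether KD changed these genes in cardiomyocytes, using deposited values within the tissue. No member differed beyond the spread of the arrays. Of the 10 genes 0 passed limma's adjusted p of 0.05, with 0% of all genes called. At an unadjusted p of 0.05, 0 of 10 passed, against 2.1% of all genes (419). For 0 of 10 did the groups fail to overlap, against 6.21% of all genes. The differences ran from −0.13 (Kdr) to 0.10 (Flt1), 5 of them below 0.

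Vegfa measured 10.98, 10.84 and 10.92 in WT and 10.86, 11.07 and 10.82 in KD cardiomyocytes. Its difference was 0.00 with a 95% interval of −0.24 to 0.24, so changes within that range remain possible. The interval is not adjusted for the number of genes and is not a limit of detection. Vegfb measured 10.97, 11.08 and 10.96 in WT and 10.99, 10.97 and 11.17 in KD, with overlap. Kdr measured 8.87, 8.81 and 9.002 in WT and 8.69, 8.88 and 8.72 in KD. Of its 3 KD values 1 lay within the WT range. Angpt1 spread more in KD, at 8.79, 8.27 and 8.28, than in WT, at 8.42, 8.51 and 8.58. The other 6 genes had differences of −0.11 (Angpt2) to 0.10 (Flt1), and the groups overlapped for each. Tek, for example, measured 8.48, 8.12 and 8.50 in WT cardiomyocytes and 8.21, 8.39 and 8.52 in those of KD mice.

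The third comparison asks the same of whole hearts. The ligands Vegfa and Angpt1 measured lower in both KD hearts than in both WT hearts, by 0.60 and 0.67 on the log2 scale, and neither passed the test. The remaining 8 genes differed by −0.21 to −0.03. Of the 10 genes 0 were called, with 0% of all 19938 genes called and a smallest adjusted p of 0.713 (limma). At an unadjusted p of 0.05, 2 of 10 passed, both lower, against 2.49% of all genes lower and 4.93% (982) in either direction. The groups did not overlap for 5 of 10, all lower, against 15.4% of all genes lower and 29.6% in either direction. The 10 differences were all below 0, as were 47.5% of those of all genes, with a median of −0.14 against 0.01. Not all kept that sign: removing a loess trend on signal level gave 0.026 for Vegfb and 0.045 for Flt1. With quantile normalization Flt1 stood at 0.014.

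Vegfa measured 10.65 and 10.50 in WT hearts and 10.14 and 9.82 in KD hearts, as deposited. Both KD values lay below both WT values, and the KD hearts lay further apart than the WT hearts. The group means were 10.58 ± 0.11 (SD, n = 2) and 9.98 ± 0.22 (SD, n = 2). The difference was −0.60 (SE 0.14, 95% interval −0.89 to −0.30), a ratio of 0.661, with an unadjusted p of 0.00077 and an adjusted p of 0.871 in limma. It was the 15th smallest p of all genes. Leaving out each heart array in turn gave −0.76 to −0.44, and the adjusted p ran from 0.167 to 1.0 over all alternatives. Without KD heart replicate 1, the array with thymocyte RNA, the difference was −0.76. Without KD heart replicate 2, which held the lower Vegfa value, it was −0.44.

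Angpt1 measured 9.65 and 9.45 in WT hearts and 9.10 and 8.65 in KD hearts. The groups did not overlap, and the KD values were further apart than the WT values. The means were 9.55 ± 0.14 and 8.88 ± 0.32 (SD, n = 2 each), a difference of −0.67 (SE 0.19, 95% interval −1.08 to −0.26) and a ratio of 0.627. Its unadjusted p was 0.0035 and its adjusted p 0.94 in limma, with 0.209 to 1.0 over the alternatives. The size rested on KD heart replicate 2, without which it was −0.45, against −0.90 without KD heart replicate 1.

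Vegfb, which shares the receptor Flt1 with Vegfa, measured 10.73 and 10.76 in WT hearts and 10.56 and 10.78 in KD hearts, with overlap. Vegfa minus Vegfb on the same array differed by −0.52 between KD and WT hearts, with no overlap. Vegfc measured 7.88 and 7.54 in WT hearts and 7.71 and 7.66 in KD hearts, whose values lay between those of WT. Angpt2 measured 6.82 and 6.57 in WT and 6.57 and 6.51 in KD, a difference of −0.15 (SE 0.15) with the nearest arrays almost equal.

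Among the receptors Kdr measured 10.55 and 10.19 in WT and 10.26 and 10.06 in KD hearts, a difference of −0.21 (SE 0.14). One KD heart lay between the WT hearts. Tek measured 10.57 and 10.32 in WT and 10.31 and 10.17 in KD, also −0.21 (SE 0.16). Tie1 measured 10.09 and 9.98 against 9.85 and 9.94, a difference of −0.14 (SE 0.15). Tek and Tie1 did not overlap, but each gap between the nearest arrays was far below the standard error. Flt1 measured 9.97 and 10.15 against 9.75 and 10.30, and Flt4 8.23 and 8.19 against 8.02 and 8.33, each with a difference of −0.04 and with the WT values inside the KD range. KD heart replicate 2 held the higher KD value of Flt1 and Flt4 and the lower of Kdr, Tek, Vegfa and Angpt1.

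**Figure D4:**
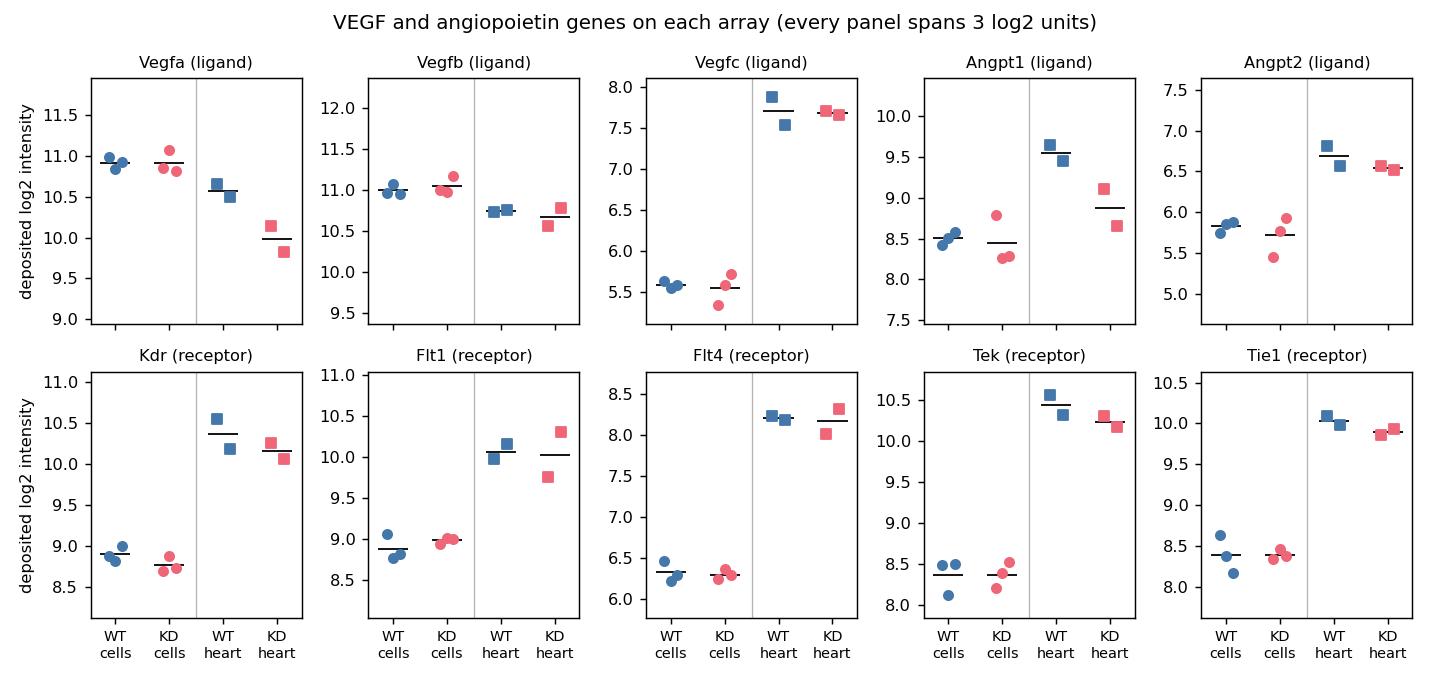
Deposited log2 value of each gene on each array in WT cardiomyocytes, KD cardiomyocytes, WT hearts and KD hearts (circles, cardiomyocytes; squares, hearts; black line, group mean), with each panel spanning 3 log2 units. Vegfa and Angpt1 step down from WT to KD hearts, to 9.82 and 8.65 at the lowest, while the cardiomyocyte groups overlap for every gene. Levels in cardiomyocytes and hearts are not on one scale here.

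**Figure D5:**
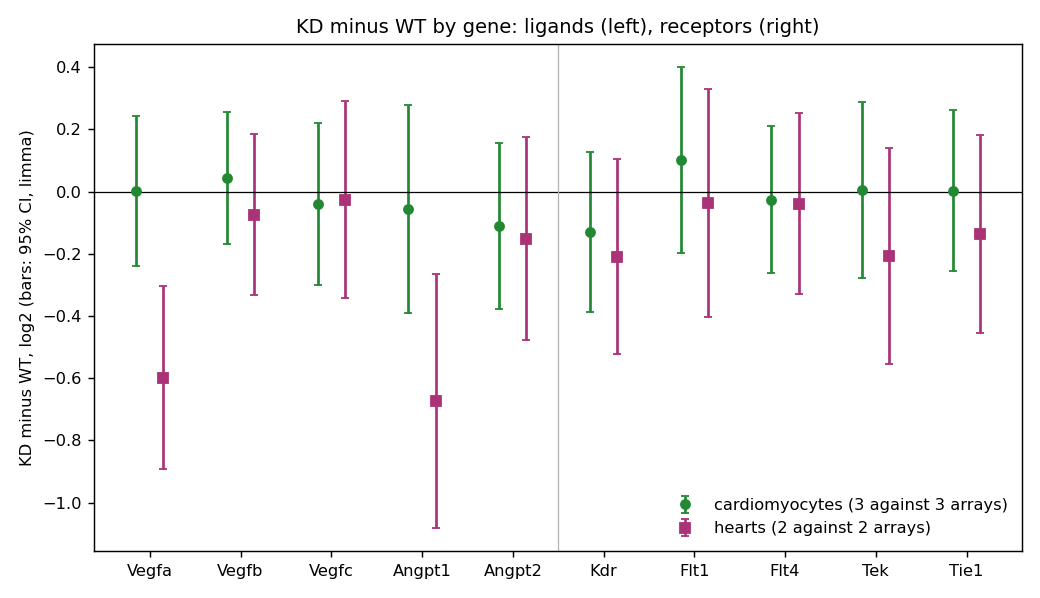
KD minus WT difference (log2) with its 95% interval from limma for each gene, in cardiomyocytes and in hearts. In hearts the intervals of Vegfa (−0.89 to −0.30) and Angpt1 (−1.08 to −0.26) lie below 0; the other heart intervals and all cardiomyocyte intervals include 0, and no gene passes after adjustment.

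Within one array, on the deposited values, receptors minus ligands was 0.82 and 1.08 in the KD hearts against 0.74 and 0.80 in the WT hearts, a shift of 0.18 without overlap. In cardiomyocytes the shift was 0.02 with overlap. Angpt1 minus its receptor Tek was −0.92 and −0.87 in the WT hearts and −1.21 and −1.52 in the KD hearts. Vegfa minus Kdr differed by −0.39 between KD and WT hearts, again without overlap. No test was made of these differences, since their members were chosen with results in view.

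Markers of other cells in the KD hearts were set beside these values, also as deposited. The mean of the 14 cardiomyocyte markers lay 0.19 and 0.22 below the WT hearts, with 14 of 14 below and 0 called. The 14 include Nppa, also an atrial gene, at 13.24 and 13.04 in WT and 13.00 and 11.69 in KD hearts. The mean for KD heart 2 therefore holds an atrial part. Vegfa minus the 14 markers measured −2.64 and −2.69 in WT and −2.92 and −3.20 in KD hearts, a change of −0.40 between genotypes. What part the share of muscle RNA has in the Vegfa difference was not tested. Endothelial markers lay 0.10 and 0.09 below WT (17 of 24 lower, 7 higher, 0 called). Those named by the rule of smallest p were all lower: Cd36 at −0.31 (SE 0.11), Fabp4 at −0.49 (SE 0.20) and Egfl7 at −0.41 (SE 0.18). Cdh5 measured 10.78 and 10.79 in WT and 10.68 and 10.79 in KD hearts. The receptors minus the 24 markers changed by −0.03 between genotypes, with overlap. Fibroblast markers lay 0.27 and 0.23 below (11 of 11 lower, 0 called; Col3a1 −0.56, SE 0.17). Mural markers lay 0.20 and 0.05 below (8 of 12 lower, 0 called; Rgs5 −0.39, SE 0.15). Angpt1 minus the mural markers was 0.42 and 0.28 in the WT hearts and 0.10 and −0.50 in the KD hearts.

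Atrial markers, a list of 8 genes added after values had been seen, also measured lower in the KD hearts. Their mean lay 0.24 and 0.90 below WT in KD hearts 1 and 2, with 7 of 8 lower and 0 called, and Bmp10, an atrial growth factor, at −0.91 (SE 0.28). The lower KD values of Angpt1 and of Vegfa were also those of KD heart 2. Angpt1 minus these markers was −0.63 and −0.78 in the WT hearts and −0.91 and −0.70 in the KD hearts, which overlap. Among WT cardiomyocytes the atrial mean was lowest on replicate 3, at 7.37, where Angpt1 was highest of the WT arrays, at 8.58. The KD cardiomyocytes went the other way, with the atrial mean and Angpt1 both highest on replicate 1. There the atrial mean was 8.24, against 7.71 and 7.92, and Angpt1 was 8.79, against 8.27 and 8.28. What part the share of atrial tissue has in the Angpt1 or the Vegfa difference was not tested further.

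The other lists held 0 called genes in either KD comparison. In hearts hypoxia response genes were lower for 15 of 20, with a median of −0.09, P4ha1, a collagen hydroxylase, being at −0.32 (SE 0.18) with overlap. In cardiomyocytes their median was 0.01. The 12 other ligands and coreceptors had 8 lower in hearts and a median of −0.04, the 21 VEGF signalling genes 13 lower and −0.05, and the 6 TIE signalling genes 2 lower and 0.08. Among the signalling genes Prkcb, a kinase also abundant in lymphocytes, was at 1.00 (SE 0.30) in hearts, 1.67 without KD heart replicate 2 (adjusted p = 4.6e-05, limma) and 0.33 without KD heart replicate 1, the array with thymocyte genes. In cardiomyocytes Nrp1, a coreceptor of Kdr, was at −0.41 (SE 0.14) without overlap, and Mmp9, a protease that frees matrix-bound Vegfa, at 0.42 (SE 0.13). Neither passed the test, at an unadjusted p of 0.012 for Nrp1 and an adjusted p of 1.

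The KD effect in cardiomyocytes minus that in hearts tests whether the tissues differ. It was 0.60 for Vegfa (SE 0.18, 95% interval 0.22 to 0.98, unadjusted p = 0.0049) and 0.62 for Angpt1 (SE 0.24, 95% interval 0.09 to 1.14, unadjusted p = 0.025), with an adjusted p of 0.999 for both in limma. Of the 10 genes 0 passed after adjustment, with 0% of all genes called, and 2 passed unadjusted, against 3.49% of all genes. A difference between the tissues in the KD effect was therefore not established for either gene.

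The genes whose arrays moved most like Vegfa were found by correlation over the 10 arrays, after centring each gene on its tissue mean, among 9576 genes above the median level. They were Pln, the brake on the calcium pump (0.948), Acat1, an enzyme of ketone metabolism (0.944), Col3a1, a fibrillar collagen (0.937), Slc25a4, the mitochondrial ADP and ATP carrier (0.922), and Klc1, a kinesin light chain (0.918). For Kdr they were Jam3 (0.949), a junctional adhesion molecule, Tm4sf1 (0.939), a surface protein of endothelial cells, Ctso (0.932), Ahnak (0.925) and Dnttip2 (0.913). All of them describe the same 10 arrays. Centring was by tissue and not by group, so KD minus WT differences, such as those of Vegfa and Angpt1 in hearts, enter every correlation here. Between members the correlation was 0.75 for Vegfa with Angpt1, 0.71 for Vegfa with Kdr, 0.84 for Flt1 with Flt4 and −0.43 for Kdr with Flt1. The receptors thus did not vary as a block from array to array.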

How the data were processed

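The authors deposited log2 signals for 35556 probe sets. RMA and Partek made them, per the submitters' processing notes. No version of either was given in the sources used here. The RMA method subtracts background, equalises the arrays it is given and merges probes, which shrinks differences of dim probes. Array medians differed between tissues, so KD was compared with WT within a tissue on deposited values, and tissues were compared after quantile normalization.

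A single gene symbol was listed for 21789 probe sets, several (not used) for 1621 and none for 12146. One limma model (version 3.58.1, R 4.3.3; 4 group means, eBayes with an intensity trend, 6 residual degrees of freedom) gave every contrast, with Benjamini-Hochberg adjustment over 19938 genes. It was tested on simulated data. The median 95% interval half-width was 0.25 in cardiomyocytes and 0.31 in hearts.

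The members and lists were chosen with earlier results of these data known. The rule for named genes took the 10 members, at most 4 genes of a list by smallest p in a contrast, and the 5 genes most correlated with Vegfa and with Kdr. Genes of the atrial list were added later. Alternatives were other scalings, a dim-gene filter, probe set means, no trend, a replicate block, a fit per tissue and leaving out each array; a loess trend and a set without Vegfc and Angpt2 were added after seeing the data.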

Additional observations from a re-analysis of the deposited data

How the results depend on the processing

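Under all alternatives 0 of the 10 genes passed in either KD comparison or in the difference between the KD effects. The 10 genes were otherwise sensitive mainly to the scaling between tissues. On deposited values the tissue difference of Angpt2 was −0.87 in WT and −0.82 in KD, and that of Angpt1 −0.43 in KD. With centring it was 0.34 for Angpt1 and 0.20 for Flt1 in WT, and 0.027 for Kdr and 0.38 for Flt1 in KD. All genes called numbered 18175 (WT) and 18119 (KD) on deposited values and 12950 and 13330 centred. With the dim filter, which left 11383 genes and dropped Angpt2, they numbered 7510 and 7644. Receptors minus ligands, cardiomyocytes minus hearts, was −0.96 (WT) and −1.12 (KD) on deposited values, −1.36 and −1.71 without Vegfc and Angpt2, and −1.19 to −1.08 (WT) and −1.49 to −1.17 (KD) without 1 array. Of the 10 genes 8 to 9 (WT) and 8 to 10 (KD) passed without 1 array, 6 and 7 centred and 10 in each as deposited.

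Small KD differences changed sign. In cardiomyocytes quantile normalization gave −0.019 for Vegfa, −0.0012 for Tek and −0.00013 for Tie1, and centring −0.0071, −0.0026 and −0.0050. In hearts quantile normalization gave 0.014 for Flt1, and the loess trend 0.026 for Vegfb and 0.045 for Flt1, with Vegfa at −0.51 and Angpt1 at −0.62. The difference between the effects for Vegfc was 0.027 with quantile normalization and 0.020 centred. Without 1 array the cardiomyocyte ranges were −0.077 to 0.048 (Vegfa), −0.017 to 0.082 (Vegfb), −0.13 to 0.065 (Vegfc), −0.23 to 0.035 (Angpt1), −0.22 to 0.019 (Angpt2), −0.081 to 0.041 (Flt4), −0.12 to 0.088 (Tek) and −0.11 to 0.13 (Tie1). The heart ranges were −0.18 to 0.034 (Vegfb), −0.19 to 0.14 (Vegfc), −0.31 to 0.24 (Flt1) and −0.19 to 0.11 (Flt4). For the difference between the effects they were −0.18 to 0.15 (Vegfc), −0.082 to 0.17 (Angpt2), −0.10 to 0.26 (Kdr), −0.14 to 0.42 (Flt1) and −0.14 to 0.17 (Flt4). Genes called without 1 array numbered 0 to 303 in hearts, with 303 without KD heart replicate 2, and 0 to 237 for the difference between the effects. The causes were not tested.

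Deviations of same-numbered WT and KD arrays correlated at 0.15, 0.13 and −0.05 in cardiomyocytes, and those of different-numbered arrays at −0.19 to 0.07. In hearts the values were 0.23 and −0.23, whose sizes must be equal with 2 arrays per group. These few values cannot decide whether the replicate numbers pair the arrays. With the replicate number as a block Vegfa in hearts stayed at −0.60 (unadjusted p = 0.0014, adjusted p = 0.789, limma), 0 genes were called in hearts, and the tissue comparisons called 11564 (WT) and 11733 (KD) genes and 9 of the 10 members in each. Signal limits Vegfc and Angpt2 most, and 2 arrays per heart group limit the KD comparison there.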

Other observations

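Genes of Notch signalling and of sprouting tip cells, which respond to VEGF in growing vessels, gave counts that depended on the scaling. Of the 18 measured, which include Angpt2, 4 were called higher in WT cardiomyocytes and 4 lower in limma, with a median of 0.08. As deposited 0 were higher and 17 lower (median −0.99), and centred 10 and 2 (0.40). Over all genes the counts were 772 and 17403 as deposited and 8421 and 4529 centred. Jag1, a Notch ligand, was among the lower ones, at −0.85 (SE 0.11). In KD hearts 12 of the 18 were lower, with a median of −0.02 and 0 called. Flt4 minus the lymphatic markers was higher in cardiomyocytes than in hearts by 0.59 in WT and 0.73 in KD, without overlap. Flt4 and 5 of the 6 markers were called lower there, and Prox1 was called higher. Macrophage markers had a median of −0.26 in KD cardiomyocytes, with 10 of 11 below WT and 0 called. Red cell and platelet markers were higher in KD hearts for 6 of 6, with a median of 0.44 and 0 called.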
